A study of Mus musculus with 15 samples.

Results

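Genes of necroptosis and of the inflammatory caspases were followed in mouse embryonic fibroblasts (MEFs), which are connective tissue cells grown from embryos. The 9 genes were taken by name for their roles, with earlier results of these data known, from the 24015 genes in the count tables. They are Zbp1, Ripk1, Ripk3, Mlkl, Casp8, Casp1, Casp4, Casp12 and Gsdmd. All cells were of the c57bl/6 strain and were labelled either wild type (WT, Nsd2(+/+)) or NSD2 KO (KO, Nsd2(-/-)), and NSD2 is an enzyme that methylates histone H3 at lysine 36. Naive cells had received no interferon, whereas pretreated cells had received interferon beta for 3 h, were washed and then stood for 24 h without it. Both kinds were sampled at 0 h and after 2 h of interferon beta at 100 units per ml, so the pretreated cells at 2 h were restimulated. This gave 8 groups with 2 libraries each, except KO naive 2 h with 1 library, and 15 libraries in all. The labels give no dose for the pretreatment, and they name no embryo, line or clone behind a library.

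Necroptosis is a lytic form of programmed cell death. ZBP1, a sensor of unusual double-stranded nucleic acids, or RIPK1, a kinase downstream of death receptors, engages the kinase RIPK3, which phosphorylates MLKL, and MLKL then breaks the plasma membrane. Caspase-8, the initiator protease of death receptor signalling, cleaves RIPK1 and RIPK3 and so holds this route in check. Inflammatory caspases drive another lytic death, pyroptosis: the protease encoded by Casp1 is activated in inflammasomes, and the one encoded by Casp4, known in mice as caspase-11, responds to bacterial lipopolysaccharide in the cytosol. Both cleave gasdermin D, the product of Gsdmd, whose fragment forms pores. Zbp1, Mlkl and Casp4 are known interferon-stimulated genes.

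Levels are given in CPM, the counts of a gene scaled to 1e+06 gene counts, for each library, replicate 1 before replicate 2. The libraries held 17170845 to 44116418 gene counts, with a median of 28585502. Differences are fitted log2 changes ± SE from edgeR's quasi-likelihood test, and a gene is called where its p, adjusted over the 13802 genes tested, is below 0.05. A level of CPM carries no correction for gene length, so levels are compared between groups and not between genes. The ribosomal transcript Rn45s together with Lars2 took 10.6% to 29.4% of gene counts and less than 20% in 3 libraries (WT naive 0 h replicate 1, WT pretreated 2 h replicate 1 and KO pretreated 0 h replicate 2). CPM in those 3 libraries therefore sits high, and the fit rescales it. Whsc1, the older symbol of the NSD2 gene, stood at 106 to 151 CPM in WT and 91.5 to 124 CPM in KO libraries. These counts cover the gene as a whole and would miss the loss of a part of it, so they are no check of the labels, and WT and KO mean the libraries so labelled. The fibroblast gene Vim was abundant throughout, at 4607 to 5793 CPM in WT and 3581 to 4593 CPM in KO. Other fibroblast markers were further apart between genotypes: Thy1 was at 0.0474 to 0.175 CPM in WT and 29.6 to 33.9 CPM in KO, Pdgfra at 4.49 to 7.40 CPM and 37.7 to 124 CPM, and Dcn at 16.3 to 20.6 CPM and 1.17 to 4.76 CPM. An effect of NSD2 and a difference between the lines or embryos used cannot be told apart in any comparison of KO with WT below. In RNA from whole cultures, fewer cells that express a gene and less RNA per cell cannot be told apart either.

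After 2 h of interferon, 3 of the 8 members tested were called higher in WT naive cells (Zbp1, Ripk3 and Mlkl) and 6 in KO naive cells (Zbp1, Mlkl, Casp8, Casp4, Casp12 and Gsdmd). The background over all genes tested was 15% called higher in WT naive and 19.1% in KO naive cells. On restimulation of pretreated cells, 3 members rose in WT (Zbp1, Mlkl and Casp4), beside 12.2% of all genes, and the same 6 as in naive cells rose in KO, beside 17.9%. No member was called lower in any of these 4 comparisons by edgeR, none was lower at an unadjusted p below 0.05, and DESeq2 called none lower. The edgeR shares of all genes called lower were 15.6%, 17.2%, 10.5% and 13.6%. At such shares few of 8 members would be called lower. In DESeq2, Casp8 was lost from the 6 in restimulated KO cells. Of all calls, 48.9% were higher in the WT naive response, or 59.6% in DESeq2, and 53.6% in WT restimulation, or 63.9% in DESeq2 and also with Rn45s and Lars2 left out. Casp1 could not be tested, with 13 counts over the 15 libraries.

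**Figure D1:**
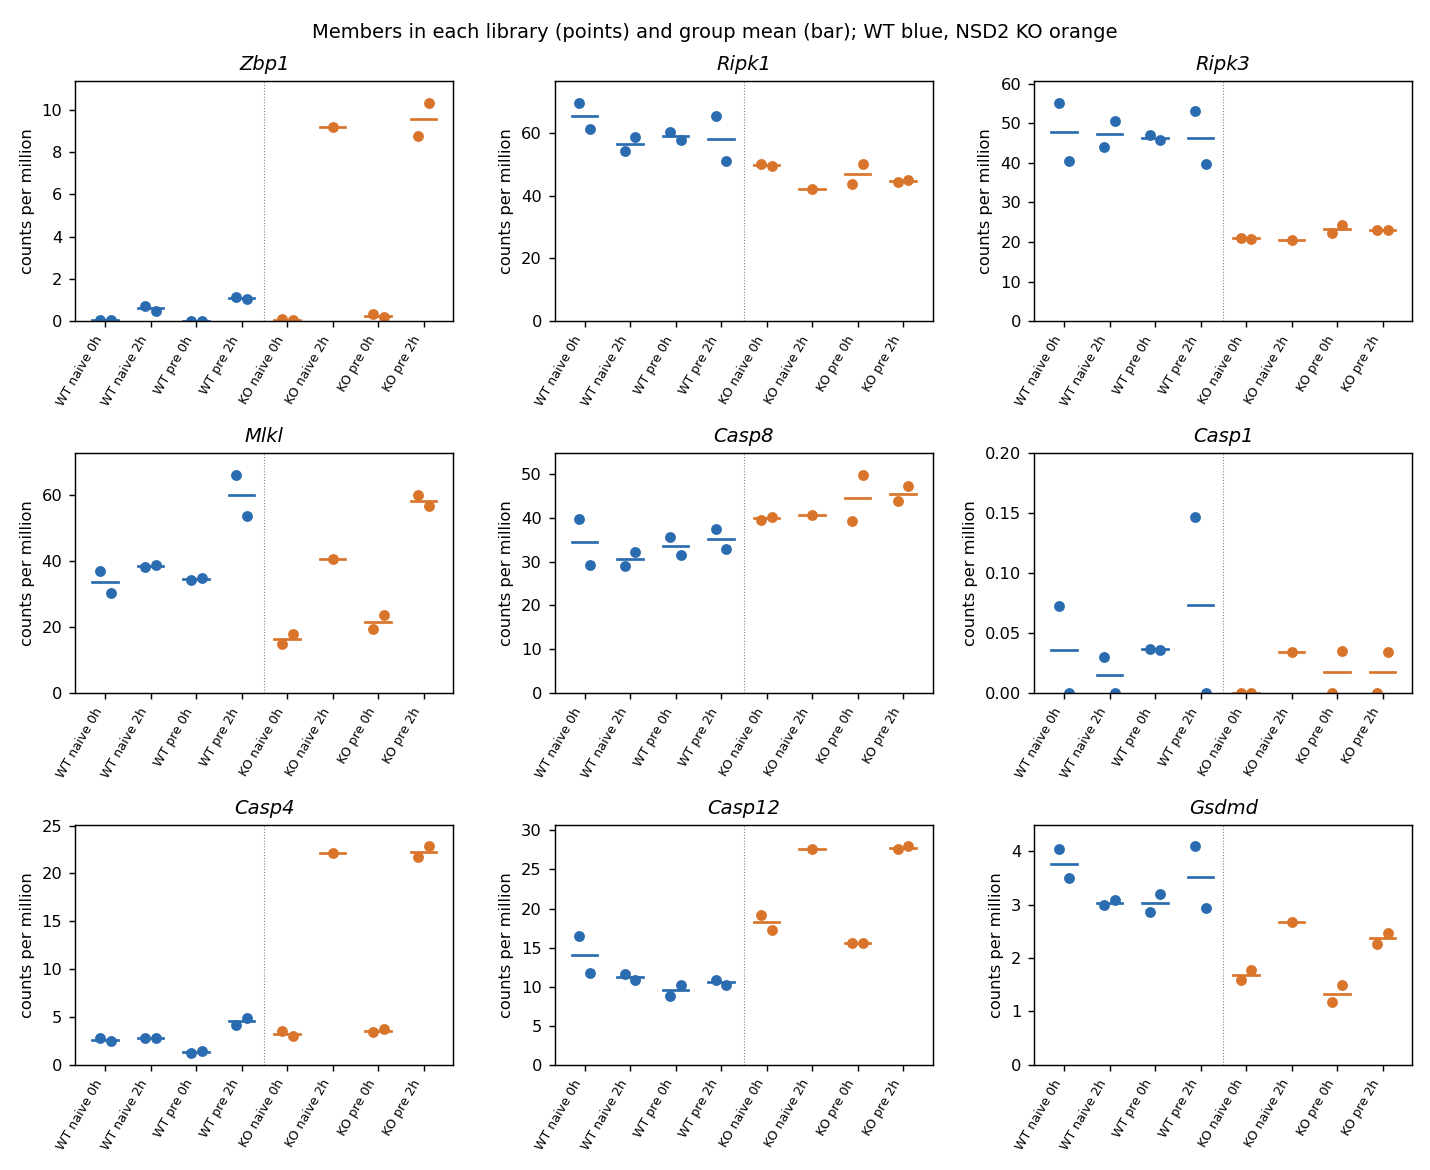
Level of each of the 9 genes in every library, in CPM on a linear axis starting at 0, with WT in blue and NSD2 KO in orange; points are libraries and bars are group means ("pre" is pretreated, and KO naive 2 h has 1 library). Zbp1, Casp4 and Casp12 are highest in the 3 KO libraries taken after interferon, Ripk3 is lower in all 7 KO than in all 8 WT libraries, and Casp1 stays at or below 0.146 CPM.

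Zbp1, the nucleic acid sensor at the head of the interferon route to necroptosis, was nearly silent without interferon, rose in every 2 h group and reached a far higher level at 2 h in KO than in WT cells. In naive WT cells its 2 libraries held 2 and 1 counts at 0 h (0.0481 and 0.0582 CPM) and 24 and 10 counts at 2 h (0.726 and 0.474 CPM). In naive KO cells it had 2 and 3 counts at 0 h (0.0835 and 0.0747 CPM) and 268 counts, or 9.18 CPM, in the 1 library at 2 h. In pretreated cells it had 0 and 0 counts in WT at 0 h and 31 and 28 at 2 h (1.13 and 1.06 CPM), against 13 and 5 counts (0.361 and 0.175 CPM) and 387 and 300 counts (8.77 and 10.3 CPM) in KO. Every 2 h library was thus above every 0 h library, and the 3 KO libraries at 2 h were above all others.

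The naive WT ratio of 2 h to 0 h was 12.3 (95% counting interval 3.87 to 62.6), with a fitted change of 3.79 ± 0.63 and an adjusted p of 2.5e-05. The naive KO ratio was 118 (49.8 to 365), with a fitted change of 7.02 ± 0.33 (adjusted p = 1.5e-16). In WT, restimulation took Zbp1 to 20.0-fold above a floor of 3 counts in the 2 WT libraries at 0 h together. The lower end of the counting interval of this ratio was 15.8. In KO, restimulation raised Zbp1 33.7-fold (21.1 to 57.2), with a fitted change of 5.22 ± 0.23 (adjusted p = 2.6e-17). The few counts at 0 h set the width of these intervals, which cover counting error only. At matched times after interferon the KO exceeded the WT level 14.6-fold (10.2 to 21.5) in naive cells (log2 3.91 ± 0.24, adjusted p = 2.8e-14) and 8.57-fold (6.57 to 11.4) in pretreated cells (log2 3.15 ± 0.19, adjusted p = 9.4e-15). The difference between the genotypes' naive responses, 3.22 ± 1.31 on the log2 scale, was not called by edgeR (adjusted p = 0.1) and was called by DESeq2 (adjusted p = 0.047). For restimulation that difference was not called either (adjusted p = 0.39), and its fitted value rests on a WT group with no counts.

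Zbp1 stayed at few counts 24 h after the first interferon in KO cells. The pretreated KO libraries at 0 h held 3.58 times the naive KO level (1.28 to 12.3), with a fitted change of 1.80 ± 0.67 that was not called (adjusted p = 0.053). It was called with no filter on low counts (0.035), without KO pretreated 0 h replicate 2 (log2 2.26, adjusted p = 0.028) and with the 3 libraries low in Rn45s and Lars2 left out (log2 2.27, adjusted p = 0.032). Against pretreated WT at 0 h, where Zbp1 had no counts, the KO level was 5.10-fold above a floor of 3 counts. The lower end of the counting interval of this ratio was 3.74. The edgeR test, which does not use this floor, called KO higher (adjusted p = 0.00031). Pretreatment did not change the level that Zbp1 reached at 2 h in KO by a called amount (1.02-fold, 0.887 to 1.18, adjusted p = 0.99), nor in WT (1.74-fold, 1.13 to 2.74, adjusted p = 0.09).

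Ripk1 and Ripk3, the kinases that hand the death signal to MLKL, scarcely moved with interferon and were lower in KO than in WT cells in all 4 conditions. Ripk3 stood at 55.1 and 40.5 CPM in WT naive 0 h, 44.0 and 50.5 in WT naive 2 h, 47.0 and 45.8 in WT pretreated 0 h and 52.9 and 39.6 in WT pretreated 2 h. In KO it stood at 21.1 and 20.7 CPM in naive 0 h, 20.5 in naive 2 h, 22.3 and 24.2 in pretreated 0 h and 23.0 and 22.9 in pretreated 2 h. The 7 KO libraries lay between 20.5 and 24.2 CPM, below all 8 WT libraries. The 4 WT groups overlapped one another in unscaled CPM. After the fit's scaling, WT naive 0 h (45.2 and 40.2) lay below WT naive 2 h (47.1 and 52.9). It also lay below WT pretreated 0 h (46.4 and 47.0), a difference that was not called. The fitted KO difference was −1.13 ± 0.074 in naive 0 h cells (2.19-fold lower, adjusted p = 4.1e-14), −1.15 ± 0.094 in naive 2 h, −1.07 ± 0.072 in pretreated 0 h and −0.97 ± 0.072 in pretreated 2 h cells. The one interferon change of Ripk3 that was called was a rise of 0.20 ± 0.069 in naive WT cells (adjusted p = 0.024), and it was not called without WT naive 0 h replicate 2 (0.14, adjusted p = 0.2) or without WT naive 2 h replicate 2 (0.12, adjusted p = 0.3). It was 0.31 without WT naive 0 h replicate 1.

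Some markers of macrophages and blood cells, which express Ripk3 and Gsdmd, differed between genotypes in the same direction. The summed level of the 12 marker genes was 13.9 to 21.3 CPM in WT and 5.38 to 9.07 CPM in KO libraries. Most of it was Cd14 (8.97 to 17.2 CPM in WT, 3.29 to 6.50 CPM in KO). Cd68 and Csf1r were also lower in KO. The ranges of Lyz2 (0.332 to 0.990 CPM in WT, 0.340 to 0.797 CPM in KO), Itgam, Fcer1g, Laptm5 and Ptprc overlapped between genotypes. The defining markers Emr1, Tyrobp and C1qa were at 0 counts in all 15 libraries, and the pan-leukocyte gene Ptprc was at most 0.0737 CPM.

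Ripk1 ran from 50.9 to 69.5 CPM in the 8 WT libraries and from 42.0 to 50.1 CPM in the 7 KO libraries. No interferon change of Ripk1 was called: the 4 fitted changes at 2 h lay between −0.03 and 0.09. Its KO differences were smaller than those of Ripk3, at −0.32 ± 0.055 in naive 0 h cells (1.25-fold lower, adjusted p = 8.5e-06), −0.38 ± 0.070 in naive 2 h, −0.41 ± 0.055 in pretreated 0 h and −0.34 ± 0.055 in pretreated 2 h cells, and all 4 were called. Ripk1 overlaps Serpinb6a in the RefSeq annotation, and since no strand setting is given in the sources used here, their reads may not be fully separable. Serpinb6a was lower in naive KO cells at 0 h by a log2 difference of −0.83 ± 0.044.

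A promoter window of Ripk1 is shown because it holds letters of both interferon motifs searched, and no interferon change of the gene was called. The window is that of the RefSeq table for GRCm38.p6, chr13:34002624-34002923 on the + strand, from 250 bases before to 50 bases after a start site, with matches in capitals.
Ripk1: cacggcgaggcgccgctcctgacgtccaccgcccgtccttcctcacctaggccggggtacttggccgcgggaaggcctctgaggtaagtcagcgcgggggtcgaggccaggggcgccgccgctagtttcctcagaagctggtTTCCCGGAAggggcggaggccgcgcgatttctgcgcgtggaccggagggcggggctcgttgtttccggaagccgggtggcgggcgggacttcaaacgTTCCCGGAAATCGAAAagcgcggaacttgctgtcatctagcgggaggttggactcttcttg
The motifs were the core of the interferon-stimulated response element (ISRE), GAAA and GAAA with any 2 bases between them, on either strand, and the core of the gamma-activated site (GAS), TTCNNNGAA, which reads the same on both strands. The ISRE core lay at −5 to 4 relative to the start site and overlapped a GAS core at −11 to −3, and a further GAS core lay at −108 to −100. RefSeq gives Ripk1 another window, chr13:34002113-34002412, which held neither core. Of the 32851 windows in the table, 3.44% held the ISRE core and 8.30% the GAS core. A match describes letters and does not show binding.

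Mlkl, which encodes the membrane-breaking executioner of necroptosis, began lower in KO than in WT cells and met the WT level after interferon. It stood at 37.1 and 30.3 CPM in WT naive 0 h, 38.1 and 38.7 in WT naive 2 h, 34.2 and 35.0 in WT pretreated 0 h and 66.2 and 53.7 in WT pretreated 2 h. In KO it stood at 14.9 and 17.8 CPM in naive 0 h, 40.7 in naive 2 h, 19.3 and 23.6 in pretreated 0 h and 59.9 and 56.6 in pretreated 2 h. All 4 unstimulated KO libraries were thus below all 8 WT libraries, and at 2 h in pretreated cells the genotypes overlapped. Interferon raised Mlkl by 0.42 ± 0.068 in naive WT (1.34-fold, adjusted p = 1.3e-05) and by 1.51 ± 0.084 in naive KO cells (2.84-fold, adjusted p = 3.6e-15). On restimulation the rise was 0.83 ± 0.064 in WT (1.78-fold, adjusted p = 1.3e-11) and 1.61 ± 0.066 in KO (3.05-fold, adjusted p = 9.7e-19).

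The KO deficit of Mlkl was −0.96 ± 0.073 in naive (1.94-fold lower, adjusted p = 1.7e-12) and −0.78 ± 0.070 in pretreated cells at 0 h (1.71-fold lower, adjusted p = 6.8e-11). At 2 h no difference was called, at 0.13 ± 0.080 in naive (adjusted p = 0.16) and 0.0032 ± 0.060 in pretreated cells (adjusted p = 0.97). The larger KO response was itself tested: it exceeded the WT response by 1.09 ± 0.11 in naive (adjusted p = 7.6e-09) and by 0.78 ± 0.092 in pretreated cells (adjusted p = 2.8e-07).

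Mlkl was slightly higher in pretreated than in naive cells at 0 h, a call that held under all settings in KO only. The level 24 h after washing was above the naive one by 0.38 ± 0.076 in KO (adjusted p = 0.00044) and by 0.20 ± 0.068 in WT cells (adjusted p = 0.031). The WT value was not called in DESeq2 (adjusted p = 0.072), with the 3 libraries low in Rn45s and Lars2 left out (0.14), or without WT naive 0 h replicate 1 (0.14), WT naive 0 h replicate 2 (0.089) or WT pretreated 0 h replicate 2 (0.21). Restimulated cells exceeded naive cells at 2 h by 0.61 ± 0.064 in WT and 0.48 ± 0.077 in KO. In WT, restimulation raised Mlkl by 0.41 ± 0.093 more than the first stimulation did (adjusted p = 0.0083), a call lost without WT naive 0 h replicate 1 (adjusted p = 0.069), WT pretreated 0 h replicate 1 (0.051), WT pretreated 2 h replicate 1 (0.05) or those low in Rn45s and Lars2 (0.2). Ordered by mean level from low to high, the groups ran KO naive 0 h, KO pretreated 0 h, WT naive 0 h, WT pretreated 0 h, WT naive 2 h, KO naive 2 h, KO pretreated 2 h and WT pretreated 2 h. Of the neighbours in that order that were compared, WT and KO naive 2 h, and KO and WT pretreated 2 h, did not differ by a called amount.

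**Figure D2:**
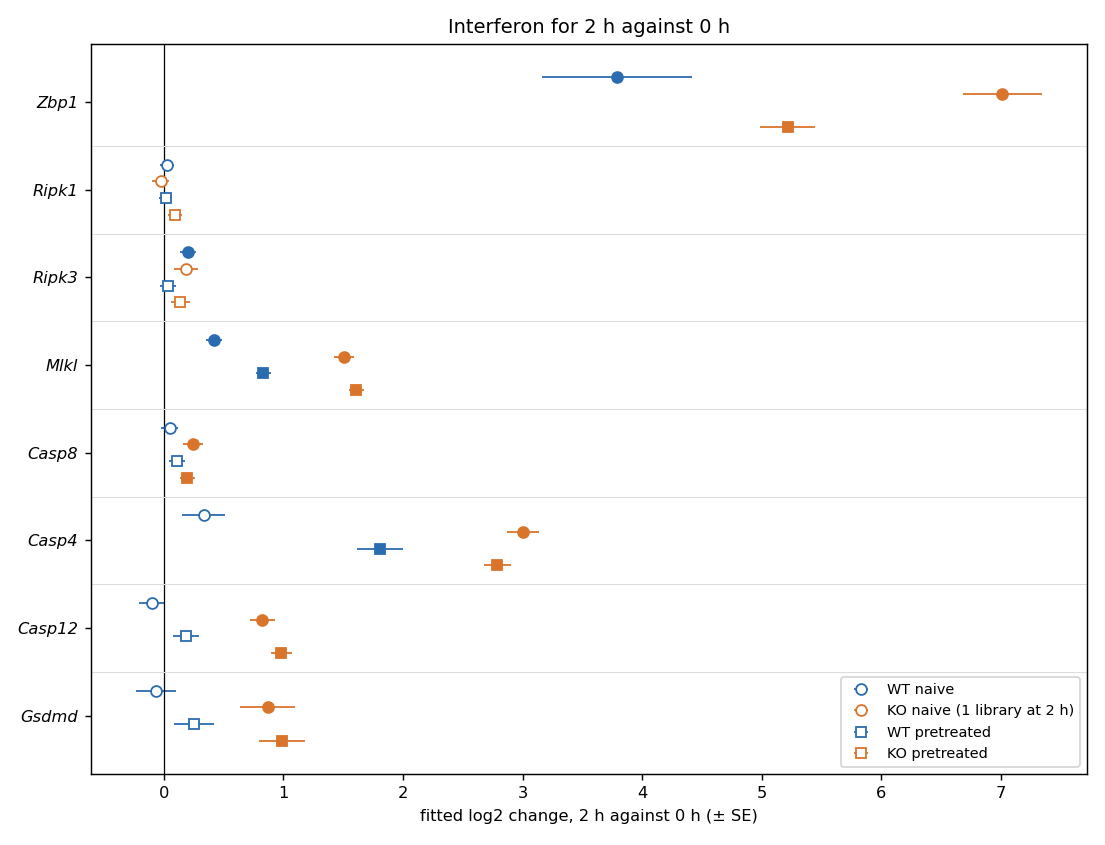
Fitted log2 change ± SE after 2 h of interferon against 0 h for the 8 genes tested, in naive (circles) and pretreated (squares) cells, WT in blue and KO in orange; filled points are called at adjusted p below 0.05, and KO naive rests on 1 library at 2 h. Zbp1 in pretreated WT cells is left out, since its 0 h group had no counts. Mlkl, Casp4, Casp12 and Gsdmd lie further right in KO than in WT, and Ripk1 stays near 0 in all 4.

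Casp8, whose product restrains necroptosis and starts death receptor apoptosis, was modestly higher in KO cells. In WT it stood at 39.6 and 29.2 CPM in naive 0 h, 29.0 and 32.2 in naive 2 h, 35.7 and 31.4 in pretreated 0 h and 37.5 and 32.8 in pretreated 2 h. In KO it stood at 39.5 and 40.2 CPM in naive 0 h, 40.7 in naive 2 h, 39.3 and 49.8 in pretreated 0 h and 43.9 and 47.1 in pretreated 2 h. The unscaled levels overlap at naive 0 h through WT replicate 1, which is low in Rn45s and Lars2, and after the fit's scaling the libraries of the genotypes did not overlap in any condition. The KO difference was 0.27 ± 0.067 in naive 0 h (1.21-fold, adjusted p = 0.00075), 0.47 ± 0.082 in naive 2 h, 0.32 ± 0.066 in pretreated 0 h and 0.41 ± 0.065 in pretreated 2 h cells, and all 4 were called.

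Interferon raised Casp8 a little in KO cells, by 0.24 ± 0.080 in naive (1.18-fold) and 0.19 ± 0.063 in pretreated cells (1.14-fold), both with an adjusted p of 0.017. The naive call was lost without KO naive 0 h replicate 2 (adjusted p = 0.055). The pretreated call was lost in DESeq2 (adjusted p = 0.057), without KO pretreated 0 h replicate 1 (0.12, adjusted p = 0.27) and without KO pretreated 2 h replicate 2 (0.15, adjusted p = 0.14). In WT no change of Casp8 was called (0.05 and 0.11), and the difference between genotypes in its response was not called in naive (adjusted p = 0.25) or pretreated cells (adjusted p = 0.71). Its neighbour Cflar, which encodes the caspase-8 relative cFLIP, was higher in KO by 0.91 ± 0.057 at naive 0 h and 1.33 ± 0.064 at naive 2 h.

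Casp4, the gene of the lipopolysaccharide-responsive caspase, was far higher in KO than in WT cells after interferon. In WT it stood at 2.79 and 2.45 CPM in naive 0 h, 2.75 and 2.80 in naive 2 h, 1.22 and 1.44 in pretreated 0 h and 4.17 and 4.90 in pretreated 2 h. In KO it stood at 3.55 and 2.96 CPM in naive 0 h, 22.1 in naive 2 h, 3.45 and 3.71 in pretreated 0 h and 21.7 and 22.8 in pretreated 2 h. The 3 KO libraries at 2 h were above 20 CPM and each of the other 12 was below 5 CPM. Naive WT cells showed no called response (0.33 ± 0.18, adjusted p = 0.17), whereas naive KO cells rose by 3.00 ± 0.14 (8.02-fold, adjusted p = 1.7e-17). Restimulation raised Casp4 by 1.81 ± 0.19 in WT (3.50-fold, adjusted p = 1.1e-08) and by 2.79 ± 0.11 in KO cells (6.91-fold, adjusted p = 9.5e-19).

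The KO response of Casp4 exceeded the WT response by 2.67 ± 0.23 in naive cells (adjusted p = 4.3e-10) and by 0.98 ± 0.25 in pretreated cells (adjusted p = 0.0075). The second of these was lost without WT pretreated 2 h replicate 1 (0.76, adjusted p = 0.057), without WT pretreated 0 h replicate 2 (0.83, adjusted p = 0.13) and with the 3 libraries low in Rn45s and Lars2 left out (0.71, adjusted p = 0.14). At 0 h the genotypes did not differ by a called amount in naive cells (0.37 ± 0.17, adjusted p = 0.054), a value that was called with RLE size factors (0.046) and without KO naive 0 h replicate 2 (0.53, adjusted p = 0.034). They differed in pretreated cells at 0 h (1.35 ± 0.19, 2.55-fold, adjusted p = 5.8e-07). After interferon KO exceeded WT by 3.04 ± 0.14 in naive (8.23-fold, adjusted p = 1.9e-17) and 2.33 ± 0.11 in pretreated cells (5.03-fold, adjusted p = 3.2e-17).

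Casp4 differed between pretreated and naive WT cells at both time points, though each call was lost under some settings. At 0 h the pretreated WT level was 1.74-fold lower than the naive one (−0.80 ± 0.21, adjusted p = 0.0058), a call lost without WT naive 0 h replicate 1 (−0.86, adjusted p = 0.055) and without WT pretreated 0 h replicate 1 (−0.66, adjusted p = 0.081). In KO that change was 0.18 ± 0.16 and not called. The genotypes differed in it by 0.98 ± 0.26 (adjusted p = 0.033), and Casp4 was the only member for which edgeR called such a difference. That call was lost in DESeq2 (0.054), with the 3 libraries low in Rn45s and Lars2 left out (0.11), and without WT naive 0 h replicate 1 (0.12) or 2 (0.078), KO naive 0 h replicate 2 (0.19), WT pretreated 0 h replicate 1 (0.17) or KO pretreated 0 h replicate 1 (0.092) or 2 (0.066). At 2 h the pretreated WT level was above the naive one by 0.68 ± 0.16 (1.60-fold, adjusted p = 0.0023), or 0.45 and not called without WT pretreated 2 h replicate 2 (adjusted p = 0.083). The WT response on restimulation exceeded the naive response by 1.47 ± 0.27 (adjusted p = 0.00071). In KO the 2 h level did not differ by a called amount with pretreatment (−0.03 ± 0.11, adjusted p = 0.87).

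Casp12, the neighbour of Casp4 and an inflammatory caspase linked to the endoplasmic reticulum, responded to interferon in KO cells and not by a called amount in WT. In WT it stood at 16.4 and 11.7 CPM in naive 0 h, 11.6 and 10.9 in naive 2 h, 8.84 and 10.2 in pretreated 0 h and 10.9 and 10.2 in pretreated 2 h. In KO it stood at 19.2 and 17.3 CPM in naive 0 h, 27.7 in naive 2 h, 15.6 and 15.6 in pretreated 0 h and 27.6 and 27.9 in pretreated 2 h. In each condition every KO library was above every WT library. The KO rise was 0.82 ± 0.10 in naive (1.77-fold, adjusted p = 1.5e-07) and 0.98 ± 0.085 in pretreated cells (1.98-fold, adjusted p = 6.6e-11), against −0.10 ± 0.10 (adjusted p = 0.49) and 0.19 ± 0.11 (adjusted p = 0.25) in WT. The genotypes' responses differed by 0.93 ± 0.14 in naive (adjusted p = 1.9e-05) and 0.80 ± 0.14 in pretreated cells (adjusted p = 0.00014).

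KO cells had more Casp12 than WT cells by 0.41 ± 0.093 at naive 0 h (1.33-fold, adjusted p = 3e-04), 0.64 ± 0.10 at pretreated 0 h, 1.34 ± 0.11 at naive 2 h and 1.43 ± 0.092 at pretreated 2 h (2.70-fold, adjusted p = 2.8e-14). In WT the level 24 h after washing was below the naive one by a log2 difference of −0.42 ± 0.10 (adjusted p = 0.0034). This rested on WT naive 0 h replicate 1 (−0.28 without it, adjusted p = 0.22) and WT pretreated 0 h replicate 1 (−0.30, adjusted p = 0.094), and it was −0.27 (adjusted p = 0.2) with the 3 libraries low in Rn45s and Lars2 left out. Casp1, the inflammasome caspase, had at most 4 counts in any library, and its levels ran from 0 to 0.146 CPM. Casp1 was at 0 in 7 of the 15 libraries, and a response of Casp1 was not detectable at this depth. Among the genes in the count tables, Casp1, Casp4 and Casp12 stand next to each other on chromosome 9 in RefSeq order (GRCm38.p6). They lie between Gria4 and Pdgfd, both of which flank the cluster. Gria4 was at most 0.0474 CPM, and Pdgfd did not change by a called amount with interferon in naive KO cells (0.17 ± 0.14, adjusted p = 0.35) but was higher in KO than in WT by 0.69 ± 0.12 at naive 0 h and 0.97 ± 0.15 at naive 2 h.

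Promoters of Mlkl, Casp4 and Casp12, the 3 members whose KO response exceeded the WT response in both naive and pretreated cells, are shown for comparison with that of Ripk1, with GAS cores in capitals. The windows are chr8:111338156-111338455 on the − strand for Mlkl, chr9:5308599-5308898 on the + strand for Casp4 and chr9:5345226-5345525 on the + strand for Casp12, all in GRCm38.p6.
Mlkl: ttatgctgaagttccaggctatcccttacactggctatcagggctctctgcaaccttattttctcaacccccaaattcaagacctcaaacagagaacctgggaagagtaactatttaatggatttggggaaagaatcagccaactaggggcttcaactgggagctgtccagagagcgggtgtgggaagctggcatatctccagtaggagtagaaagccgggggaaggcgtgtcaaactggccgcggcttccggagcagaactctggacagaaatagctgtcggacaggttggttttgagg
Casp4: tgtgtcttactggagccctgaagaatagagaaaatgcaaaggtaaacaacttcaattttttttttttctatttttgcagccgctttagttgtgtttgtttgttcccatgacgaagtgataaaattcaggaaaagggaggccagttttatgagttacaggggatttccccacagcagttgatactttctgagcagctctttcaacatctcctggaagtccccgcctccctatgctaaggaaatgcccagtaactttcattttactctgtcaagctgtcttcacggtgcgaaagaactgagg
Casp12: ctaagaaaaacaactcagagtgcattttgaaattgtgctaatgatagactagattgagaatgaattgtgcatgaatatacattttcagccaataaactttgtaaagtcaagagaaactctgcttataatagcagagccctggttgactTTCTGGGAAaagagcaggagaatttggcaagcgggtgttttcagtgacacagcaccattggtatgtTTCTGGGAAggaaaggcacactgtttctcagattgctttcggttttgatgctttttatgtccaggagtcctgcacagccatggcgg
The Casp12 window held 2 GAS cores, at −102 to −94 and at −36 to −28 relative to the start site, both with the letters TTCTGGGAA. Neither motif was found in the Mlkl or Casp4 windows, which says only that these letters are not in these 300 bases. The windows of Ripk3, Casp8 and Casp1 held neither core. RefSeq windows were matched for 7 of the 9 members.

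Gsdmd, which encodes the pore-forming substrate of the inflammatory caspases, was low throughout and lower in unstimulated KO cells. In WT it stood at 4.04 and 3.49 CPM in naive 0 h, 2.99 and 3.08 in naive 2 h, 2.87 and 3.21 in pretreated 0 h and 4.09 and 2.94 in pretreated 2 h. In KO it stood at 1.59 and 1.77 CPM in naive 0 h, 2.67 in naive 2 h, 1.17 and 1.50 in pretreated 0 h and 2.27 and 2.48 in pretreated 2 h. In unscaled CPM every KO library was below every WT library. After the fit's scaling KO naive 2 h (2.92) was above WT pretreated 0 h replicate 1 (2.84), and within each condition KO stayed below WT. The KO difference was −1.07 ± 0.18 at naive 0 h (2.10-fold lower, adjusted p = 5.2e-06) and −1.28 ± 0.20 at pretreated 0 h (2.42-fold lower, adjusted p = 1.5e-06). At 2 h it was −0.14 ± 0.21 and not called in naive cells (adjusted p = 0.6) and −0.54 ± 0.17 in pretreated cells (1.45-fold lower, adjusted p = 0.0059). The last call was lost in DESeq2 (adjusted p = 0.052), without WT pretreated 2 h replicate 1 (−0.39, adjusted p = 0.12), without KO pretreated 2 h replicate 1 (adjusted p = 0.062) and with the 3 libraries low in Rn45s and Lars2 left out (−0.40, adjusted p = 0.12).

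Interferon raised Gsdmd in KO cells by 0.87 ± 0.23 in naive (1.82-fold, adjusted p = 0.0036) and 0.99 ± 0.20 in pretreated cells (1.98-fold, adjusted p = 0.00017), and its changes in WT, −0.07 and 0.25, were not called. The genotypes' naive responses differed by 0.93 ± 0.28 (adjusted p = 0.022). This was not called in DESeq2 (0.12), on leaving out KO naive 0 h replicate 1 (0.054) or WT naive 2 h replicate 1 (0.06), or with the 3 libraries low in Rn45s and Lars2 left out (0.052). In pretreated cells the difference was 0.74 ± 0.26 and not called (adjusted p = 0.077). As given beside Ripk3, the sum of the macrophage and blood markers, most of it Cd14, was lower in KO than in WT libraries. The part of such cells in the Gsdmd and Ripk3 differences was not tested.

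**Figure D3:**
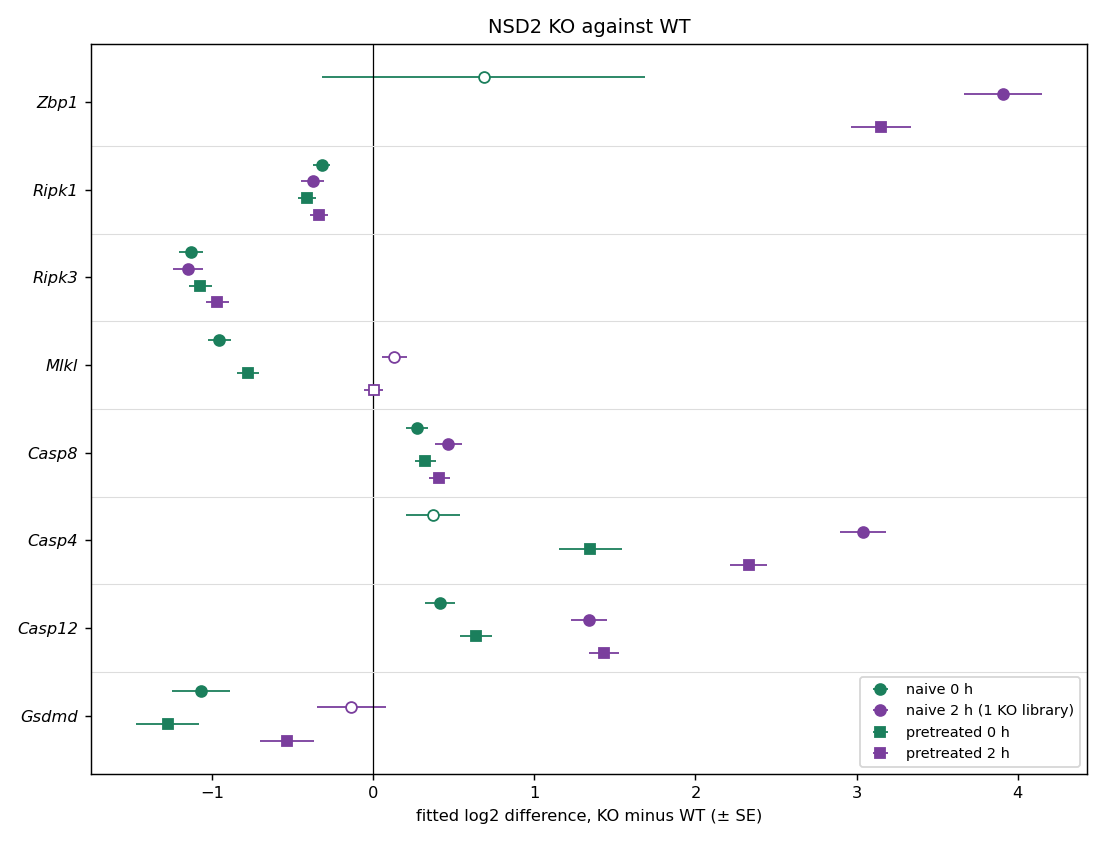
Fitted log2 difference ± SE of KO minus WT for the 8 genes tested, at 0 h (green) and 2 h (purple) in naive (circles) and pretreated (squares) cells; filled points are called at adjusted p below 0.05, and the naive 2 h points rest on 1 KO library. Zbp1 at pretreated 0 h is left out, since the WT group had no counts. Ripk1 and Ripk3 lie left of 0 in all 4 conditions, Casp8 and Casp12 right of 0, and Mlkl moves from −0.96 at naive 0 h to 0.13 at naive 2 h.

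Genotype calls were common over all genes, and the members' counts are read against that background. Of the 8 members tested, 2 were called higher in KO than WT at naive 0 h (Casp8 and Casp12) and 4 lower (Ripk1, Ripk3, Mlkl and Gsdmd), beside 34.3% and 32.7% of all genes. At pretreated 0 h 4 were higher, with Zbp1 and Casp4 added, and the same 4 were lower, beside 32.8% and 31.8%. At naive 2 h 4 were higher (Zbp1, Casp8, Casp4 and Casp12) and 2 lower (Ripk1 and Ripk3), beside 32.3% and 28.8%, and at pretreated 2 h 4 were higher and 3 lower, Gsdmd among the latter, beside 35.6% and 30.7%. The genotype difference of the naive response was called for 4 members, all larger in KO (Mlkl, Casp4, Casp12 and Gsdmd), beside 8.46% of all genes, and that of restimulation for 3 (Mlkl, Casp4 and Casp12), beside 6.53%. For the change left 24 h after washing it was called for Casp4 alone, beside 1.71% of all genes. In WT, restimulation exceeded the naive response for 2 members (Mlkl and Casp4), beside 1.63% of all genes. In none of these 4 contrasts was a member called with the opposite sign, by edgeR or DESeq2 or at an unadjusted p below 0.05. The edgeR shares of all genes called with that sign were 6.85%, 2.51%, 1.51% and 1.41%. At such shares few or none of 8 members would be called.

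Pretreated and naive cells were also compared at the same time point, with and without interferon. At 0 h, 1 member was higher (Mlkl) and 2 were lower (Casp4 and Casp12) in pretreated than in naive WT cells, beside 12.6% and 11.4% of all genes, and in KO 1 was higher (Mlkl), beside 11.1%. In KO 0 members were called lower by edgeR or DESeq2, with 1 at an unadjusted p below 0.05 (Casp12), beside 10.6% of all genes. Casp8 in KO was close to the threshold (0.17 ± 0.064, adjusted p = 0.063) and was called without KO pretreated 0 h replicate 1 (0.24, adjusted p = 0.031), with no filter on low counts (0.048) and in a fit on the groups compared (0.039). At 2 h, Mlkl and Casp4 were higher in pretreated than in naive WT cells, beside 13.2% of all genes, and Mlkl alone was higher in KO, beside 11.2%. No member was lower in either genotype by edgeR, DESeq2 or an unadjusted p below 0.05, beside 11.8% of all genes in WT and 7.61% in KO.

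Genes that work beside the members in necroptosis were read from a list of 37, all tested. In naive WT cells 12 rose and 6 fell with interferon, beside 15% and 15.6% of all genes. The median change was 0.068 against −0.017 over all genes. In naive KO cells 21 rose and 3 fell, beside 19.1% and 17.2%, with a median of 0.20 against −0.013. The calls with the smallest p in KO were Eif2ak2 (2.80 ± 0.057, against 1.04 ± 0.053 in WT), the gene of the double-stranded RNA kinase PKR, Tlr3 (4.32 ± 0.092), a sensor of double-stranded RNA, Tnfaip3 (1.76 ± 0.064, against 1.16 ± 0.062), which encodes the ubiquitin-editing enzyme A20, and Adar (1.78 ± 0.066, against 1.13 ± 0.063), an RNA editor that limits the nucleic acids ZBP1 can sense. On restimulation 14 rose and 4 fell in WT, beside 12.2% and 10.5% of all genes, and 23 rose and 1 fell in KO, beside 17.9% and 13.6%. Between genotypes at naive 0 h 15 were higher and 12 lower in KO, with a median of 0.057 against 0.0094 over all genes. As shares of the list these lie near the 34.3% and 32.7% of all genes called. The smallest p were those of Tlr4 (1.25 ± 0.077), the lipopolysaccharide receptor, Cflar (0.91 ± 0.057), Otulin (−0.98 ± 0.068), which encodes a deubiquitinase of linear chains, and Ninj1 (1.63 ± 0.12), which encodes a protein of plasma membrane rupture. The naive response was larger in KO for 15 of the 37 and smaller for 1, beside 8.46% and 6.85% of all genes. Tlr3 (3.76 ± 0.13), Eif2ak2 (1.76 ± 0.079), the death receptor gene Fas (2.34 ± 0.20) and the deubiquitinase gene Cyld (0.64 ± 0.077) had the smallest p.

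Inflammasome and pyroptosis genes were read from a list of 26. Of these, 17 passed the filter on low counts, beside 13802 of 24015 genes in all, and the other 9, among them Nlrp3, Nlrc4, Mefv, Il1a and Il1b, did not. Of the 17, 2 rose and 1 fell with interferon in naive WT cells, beside 15% and 15.6% of all genes. In naive KO cells 9 rose and 2 fell, beside 19.1% and 17.2%. As shares of the list, only the KO rises were above those of all genes. The medians were 0.0051 in WT and 0.38 in KO, against −0.017 and −0.013 over all genes. The leading KO rises were in the guanylate-binding protein gene Gbp2 (6.95 ± 0.11, against 1.15 ± 0.13 in WT), Gm12250, which encodes the immunity-related GTPase IRGB10 (8.08 ± 0.30, against 2.34 ± 0.66 in WT) and Gbp5 (7.02 ± 0.41), followed by the cytosolic DNA sensor Aim2 (0.85 ± 0.12). Mean levels at naive 0 h were 0.159 CPM in WT and 0.125 CPM in KO for Gm12250, and 0 and 0.0458 CPM for Gbp5. The fitted sizes for both genes thus rest on few counts at 0 h. Outside KO at 2 h, no group mean of Gbp5 was above 0.0737 CPM. Txnip, which encodes a thioredoxin-binding protein, fell by 1.88 ± 0.082 in naive WT cells. At naive 0 h 7 of the 17 were higher and 4 lower in KO, beside 34.3% and 32.7% of all genes, among them Serpinb1a, a protease inhibitor gene (−2.08 ± 0.15), Tmem173, which encodes STING (1.18 ± 0.093), Aim2 (1.45 ± 0.12) and Nek7, a kinase needed for NLRP3 activation (0.53 ± 0.045).

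Apoptotic caspases and genes of the Bcl-2 family moved in both directions, as did the genes tested as a whole. Of 22 tested out of 23, 6 rose and 3 fell with interferon in naive WT cells, beside 15% and 15.6% of all genes. In naive KO cells 9 rose and 5 fell, beside 19.1% and 17.2%. As shares of the list, the falls lie near those of all genes and the rises above them. The medians were 0.021 in WT and 0.060 in KO, against −0.017 and −0.013 over all genes. Tnfsf10, which encodes the death ligand TRAIL, rose by 5.86 ± 0.16 in KO, Casp2 by 0.81 ± 0.068 and the cytochrome c gene Cycs by 0.63 ± 0.058, while the pro-apoptotic gene Bmf fell by 1.90 ± 0.16 in KO and by 2.87 ± 0.19 in WT. In WT the anti-apoptotic genes Mcl1 (0.61 ± 0.048) and Bcl2l1 (0.61 ± 0.060) also rose. At naive 0 h 8 were higher and 9 lower in KO than in WT, beside 34.3% and 32.7% of all genes, with the pro-apoptotic Bcl2l11 (1.84 ± 0.11) higher and Bok (−1.32 ± 0.061) and Cycs (−0.77 ± 0.048) lower. The naive response was larger in KO for 9 and smaller for 4, beside 8.46% and 6.85% of all genes.

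**Figure D4:**
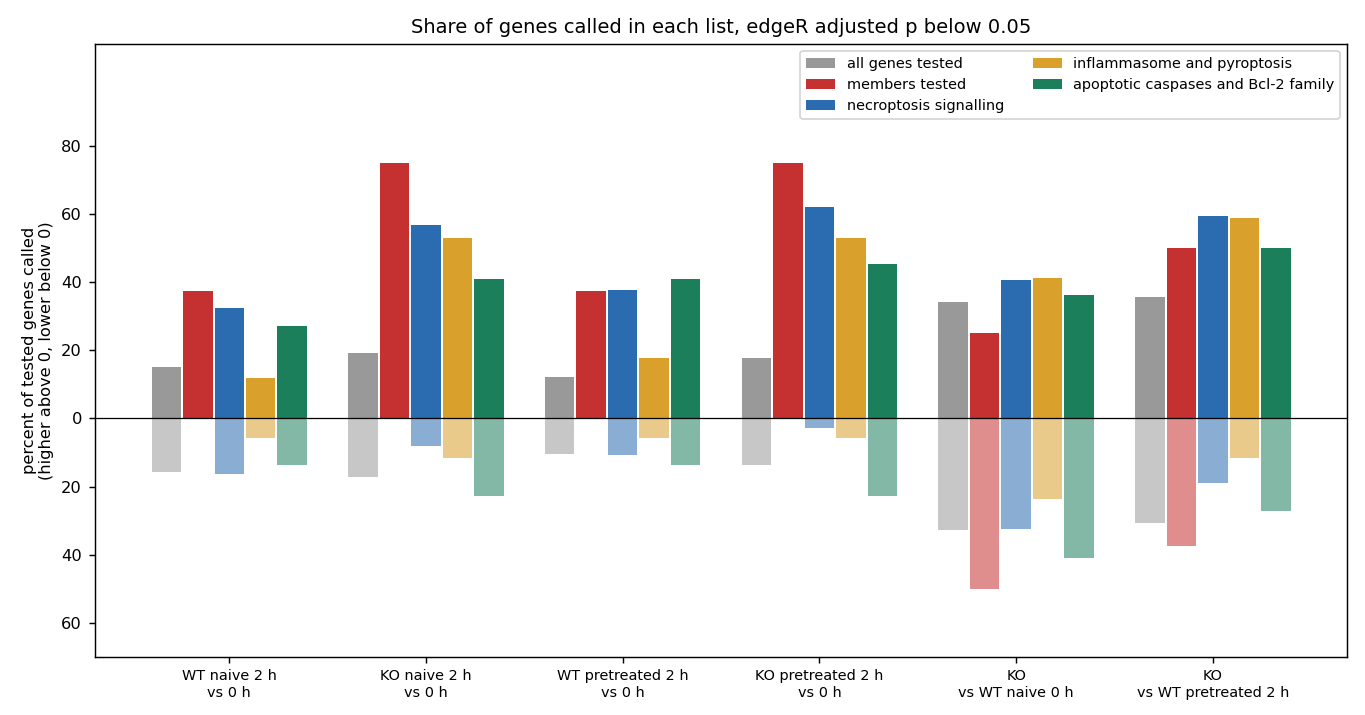
Percent of tested genes called higher (above 0) and lower (below 0) at edgeR adjusted p below 0.05, for all 13802 genes, the 8 members and the 3 pathway lists, in 4 interferon comparisons and 2 comparisons of KO with WT. In KO cells after interferon 6 of 8 members and 21 of 37 necroptosis genes are above the line in naive cells, beside 19.1% of all genes.

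Transcription factor genes of the interferon signal were read as a reference, since several members are known targets of these factors. Stat2, Irf7, Irf1 and Irf9 rose in each 2 h comparison. In naive cells the rises in WT and KO were 2.29 ± 0.076 and 3.26 ± 0.069 for Stat2, 4.22 ± 0.17 and 5.53 ± 0.10 for Irf7, and 0.78 ± 0.060 and 2.51 ± 0.061 for Irf1. Irf9 went the other way, with a larger rise in WT (2.97 ± 0.090) than in KO (2.41 ± 0.075), from a KO level that was already higher at naive 0 h by 1.98 ± 0.095. The genotype difference of the naive response was called for all 4, at 1.73 ± 0.086 for Irf1, 1.31 ± 0.29 for Irf7, 0.97 ± 0.11 for Stat2 and −0.55 ± 0.12 for Irf9. For restimulation the genotype difference was positive for Irf1 (0.96 ± 0.079) and negative for Irf9 (−0.90 ± 0.096) and Irf7 (−0.70 ± 0.16), all called, and it was not called for Stat2.

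The genes whose pattern over the 15 libraries was most like each member's were read from Pearson's r of scaled log2 CPM among 13801 other genes. These libraries share groups, so r is a description. For Zbp1 they were Phf11a (r = 0.98), Ifit3 (0.98) and Tor3a (0.98), and for Casp4 they were Psme2 (0.98), Sp140 (0.98) and Tmprss2 (0.98). Ifit3 is a known antiviral interferon-stimulated gene, and Psme2 encodes an interferon-induced proteasome activator subunit. For Casp12 they were Vwa5a (0.98), Spin1 (0.98) and Ttc39c (0.97), for Mlkl Atp10a (0.99), Hk2 (0.99) and Cct3 (0.98), and for Casp8 Ifi27l2a (0.96), Gnb4 (0.96) and Caprin1 (0.96). Ripk3 was most like Cnot4 (0.99), Banf1 (0.99) and Slc25a3 (0.99), Ripk1 most like Vopp1 (0.98), Zfp36l3 (0.98) and Mpp1 (0.98), and Gsdmd most like Nrbf2 (0.96), Xdh (0.96) and Ell2 (0.95). Among the members themselves the closest pairs were Ripk1 with Ripk3 (0.96), Zbp1 with Casp4 (0.95) and Casp4 with Casp12 (0.90).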

How the data were processed

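Per the labels' protocols, TRIzol RNA of WT and NSD2 KO MEFs went into NuGEN Ovation SP Ultralow libraries read in pairs on a HiSeq2000. The authors deposited, for each library, unnormalized counts by gene symbol. The submitters' processing notes name STAR 2.5.2b, HTSeq, bcl2fastq 2.15 and mm9. Annotation and strand setting: not given in the sources used here. Library sizes exclude the 5 summary lines of HTSeq, in which reads in no gene made up 35.1% to 41.3% and ambiguous ones 0.393% to 0.496% of uniquely aligned reads.

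With edgeR 4.0.16 (R 4.3.3), TMM factors of 0.895 to 1.22 were applied to all genes. The 13802 genes passing filterByExpr (minimum count 10) entered a quasi-likelihood fit of the 8 groups with all 15 libraries (7 residual degrees of freedom), with Benjamini-Hochberg adjusted p below 0.05 called. For the single KO naive 2 h library, a spread like that of the other groups was assumed. There were 16 comparisons. No label says that replicates came from separate cultures or animals, and p-values reflect only how far these libraries spread, which may be technical. Replicates differed by more than sampling noise, with a chi-square per degree of freedom of 3.61 to 168 (1.93 to 4.81 once Rn45s and Lars2 were removed). Counting intervals are at 95%, the floor for a group without counts is 3 counts, and both cover counting error only.

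The members and the gene lists were chosen with earlier results of these data known. All 9 members are named in each comparison, with up to 4 called genes of smallest p per pathway list, interferon transcription factor genes and the 3 genes most like each member. A few genes chosen this way are not reported here. Endothelial and epithelial marker lists summed to at most 1.78 and 5.00 CPM. Alternatives tried were DESeq2 1.42.0, RLE size factors, no filter on low counts, fitting only the groups compared, a replicate block, Rn45s and Lars2 left out, the 3 libraries low in them left out, and each library left out. The tests were tried on simulated counts. Promoter windows and gene order came from RefSeq on GRCm38.p6, which is not the build of the counts, and no coordinates were mixed. Neighbours were taken among the genes in the count tables. Figures were drawn with matplotlib 3.10.9.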

Additional observations from a re-analysis of the deposited data

Results flagged for a closer look

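A difference between groups in the size of a response, tested by an interaction contrast in edgeR, singled out 4 members for the genotype difference of the first response to interferon. On the log2 scale the KO response exceeded the WT response by 1.09 for Mlkl (adjusted p = 7.6e-09), 2.67 for Casp4 (adjusted p = 4.3e-10), 0.93 for Casp12 (adjusted p = 1.9e-05) and 0.93 for Gsdmd (adjusted p = 0.022). The KO side of each rests on 1 library at 2 h. The Gsdmd call was lost under some settings, as given above.

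For restimulation of pretreated cells the KO response exceeded the WT response by 0.78 for Mlkl (adjusted p = 2.8e-07), 0.98 for Casp4 (adjusted p = 0.0075) and 0.80 for Casp12 (adjusted p = 0.00014). For the change left 24 h after the first interferon the genotypes differed by 0.98 for Casp4 (adjusted p = 0.033). In WT cells restimulation exceeded the first response by 0.41 for Mlkl (adjusted p = 0.0083) and by 1.47 for Casp4 (adjusted p = 0.00071). As given above, the genotype calls of Casp4 for restimulation and for the change left after 24 h were lost under some settings. So was the Mlkl call in WT cells.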

How the results depend on the processing

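Over the 8 members tested and 16 comparisons, 62 member values were called. Of these, 50 stayed called under all planned settings and with each library left out, except the single KO naive 2 h library. Of the 66 not called, 62 were called under no setting, and 0 member values changed direction after being called. With the 3 libraries low in Rn45s and Lars2 left out, the change left after washing in WT was called for 2172 genes (main value 3307) and 1 member (3). The same setting gave 733 genes for the genotype difference of restimulation (1247), 219 genes and 0 members for that of the change after washing (445 and 1), and 1 member for WT restimulation against the naive response (2). DESeq2 also called 0 members for the genotype difference of the change after washing, where edgeR had 2 at an unadjusted p below 0.05. In KO, the members called for the change after washing were 3 with no filter, 2 in a fit on the groups compared and 2 without those 3 libraries, against 1. The cause was not tested.

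Each library was left out in turn where its group entered a comparison, except the single KO naive 2 h library. Leaving that library out removes its group, so calls that rest on it were not tested in this way. Genes called ranged from 2737 to 3617 for the WT naive response (4229 with all), 2076 to 2531 for the change after washing in WT (3307) and 1897 to 2167 in KO (2995). For pretreated against naive cells at 2 h they ranged from 2278 to 2954 in WT (3447) and 1674 to 2148 in KO (2598). For the genotype difference of the change after washing they ranged from 262 to 423 (445), and for WT restimulation against the naive response from 256 to 397 (420). Members called ranged from 0 to 2 (3) for the change after washing in WT, 1 to 2 (1) in KO, 1 to 2 (2) for pretreated against naive WT cells at 2 h, 0 to 1 (1) for the genotype difference of the change after washing and 1 to 2 (2) for WT restimulation against the naive response.

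Replicate numbers are shared between groups. In 21 pairs of groups the same-numbered libraries' deviations correlated between −0.018 and 0.064, with a median of 0.020. Such weak correlations cannot show whether same-numbered libraries were handled together. With a replicate block, 2 members were called for the change after washing in KO, Casp8 (adjusted p = 0.045) besides Mlkl. The WT naive response had 4525 called genes with the block, against 4229 in the main fit. Depth limits Zbp1 at 0 h and Casp1, where 1 count decides a level.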
